A study of Mus musculus with 11 samples.

Results

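The microRNAs (miRNAs) of the hairpins miR-200a, miR-200b, miR-200c, miR-141 and miR-429 were followed in murine embryonic stem (mES) cells with and without Trim71, an RNA binding protein of the Tripartite motif family. All rows of the deposited table that belong to these 5 hairpins were taken, which gave 9 of its 592 miRNAs, namely both arms of 4 hairpins and the 3p arm of miR-429. The table held 11 small RNA libraries from 2 mES cell clones, 1 and E3, derived from male C57BL/6 embryos. All libraries, controls included, came from cells with floxed Trim71 alleles and a Rosa26-CreERT2 allele, a ubiquitously expressed Cre recombinase that 4-hydroxytamoxifen (4-OHT) activates. In the 5 libraries labelled Trim-/-, here Trim71-/-, 4-OHT had been given to delete exon 4 of Trim71, and the labels state 500 nM for 2 days and a culture of at least 7 days, whereas the Methods of the study state a lower dose. The 6 libraries labelled Trimfl/fl, here Trim71 fl/fl, received the solvent DMSO according to the Methods, so that the deletion and the exposure to 4-OHT with active Cre cannot be told apart. Cells were grown with LIF and serum and were sorted with magnetic beads for the surface antigen SSEA-1. The table holds no messenger RNA, so that the loss of Trim71 itself was not measured in these libraries.

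The miR-200 family is known for holding epithelial cells in their epithelial state. Its members repress Zeb1 and Zeb2, transcription factors that shut off the adhesion molecule E-cadherin, and these factors in turn repress the miRNA genes. In mES cells, which are epithelial in character and express E-cadherin, the family is known to be expressed, and in somatic cells it is induced during the mesenchymal to epithelial transition that opens reprogramming. A hairpin precursor is cut by Drosha and Dicer, and either of its strands, the 5p or the 3p arm, can be loaded into an Argonaute protein. Bases 2 to 8 of the loaded strand, the seed, do most of the pairing with a target.

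The mature sequences from RefSeq (GRCm38.p6), matched by name for 9 of 9 members, are shown with the seed in capitals because the seed divides the family differently from its genomic arrangement.
miR-200b-3p: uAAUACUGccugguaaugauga
miR-200c-3p: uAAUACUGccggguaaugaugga
miR-429-3p: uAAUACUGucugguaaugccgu
miR-200a-3p: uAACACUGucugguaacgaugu
miR-141-3p: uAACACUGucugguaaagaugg
miR-200b-5p: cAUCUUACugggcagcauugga
miR-200a-5p: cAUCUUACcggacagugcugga
miR-141-5p: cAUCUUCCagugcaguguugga
miR-200c-5p: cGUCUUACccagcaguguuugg

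The 3p arms carried 2 seeds. AAUACUG was shared by miR-200b-3p, miR-200c-3p and miR-429-3p, and AACACUG by miR-200a-3p and miR-141-3p. Counted from the 5′ end, the seed of miR-200b-3p differed from that of miR-200a-3p by 1 substitution, U4C. Over 22 bases, miR-200b-3p differed from miR-200c-3p by U11G and A22G, and miR-200a-3p from miR-141-3p by C17A and U22G. How reads that fitted several members were divided is not given in the sources used here, so that these pairs are the ones whose values could mix. The 5p arms carried 3 seeds, of which AUCUUAC was shared by miR-200a-5p and miR-200b-5p. None of these seeds occurred in another miRNA among the 463 miRNAs of the table that had a RefSeq sequence under the same name.

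The 5 hairpins lie in 2 loci, and each locus holds members of both 3p seed classes. On chromosome 4 the hairpins of miR-429, miR-200a and miR-200b lie within 1846 bp on the minus strand, at chr4:156053905-156055750 of GRCm38. GENCODE places them in introns of the protein coding gene Ttll10, and the hairpin of miR-429 is also covered by an exon of the processed transcript Gm13648. On chromosome 6 the hairpins of miR-141 and miR-200c lie within 477 bp on the minus strand, at chr6:124717914-124718390. They overlap Gm15884, which is annotated as an antisense gene, and an exon of Gm29008 reaches into the hairpin of miR-141. The nearest protein coding genes there are Phb2, 964 bp away, and Ptpn6, 2317 bp away.

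Deposited values are normalised read counts that the authors corrected for batch and raised to a floor of 1. Each of days 1, 5 and 6 gave 1 library of each genotype from clone 1 and each of days 3 and 4 gave 1 of each genotype from clone E3, which makes 5 same-day pairs. Apart from pairs with a floored value, the libraries of a day added up to the same number on every day in all 9 members, to within 0.000345%, so that both genotypes have the same SD in the members without a floored value and the 5 same-day differences are the only independent measurements. The floored values are those of day 5 for miR-200a-5p and day 3 for miR-200c-5p. The authors kept a miRNA only if at least 1 of its group means reached 10, and miR-200c-5p, with a mean of 14.6 in Trim71-/- and 9.09 in Trim71 fl/fl, is in the table only through Trim71-/-. The Trim71 fl/fl library of day 2 has no partner, equalled the average over the remaining control libraries before the floor and was left out. The number of reads is unknown, and the summed values per library ranged from 3751519 to 5551715 in Trim71-/- and from 2742673 to 4332525 in Trim71 fl/fl.

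In Trim71 fl/fl cells the family took 1.034% ± 0.111 (SD, n = 5) of the summed value, and its members spanned over 3 orders of magnitude. Because the same-day sums are equal, the SDs and ranges given here mirror the same-day differences between the genotypes. They do not measure how control levels vary between days, and overlap or separation of members is described on that spread only. The highest means were those of miR-200a-3p, at 14882 ± 2879 normalised read counts (rank 27 of 592), and miR-200b-3p, at 12357 ± 5294 (rank 34), whose ranges over the 5 libraries overlapped and of which miR-200b-3p was the higher on days 1, 3 and 4. miR-200a-5p followed with 5068 ± 3767, and its range from the floor of 1 up to 10594 also overlapped both of its neighbours in the order. miR-429-3p at 2783 ± 324 and miR-200c-3p at 2697 ± 241 could not be placed in an order. miR-141-3p at 420 ± 94.9 lay apart from miR-141-5p at 154.3 ± 38.0, whereas miR-141-5p and miR-200b-5p, at 123.6 ± 44.2, overlapped. miR-200c-5p was the least abundant member at 9.09 ± 6.28 (rank 569). The chromosome 4 locus supplied 91.1% ± 1.81 of the summed value of the family in Trim71 fl/fl and 91.7% ± 0.844 in Trim71-/-.

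All 9 members had a higher fitted mean in Trim71-/- than in Trim71 fl/fl cells, with log2 fold changes from 0.13 for miR-141-3p to 2.56 for miR-200a-5p and a median of 0.65. For miR-200c-5p the filter on group means leaves the other direction little room, and the other 8 were higher without that limit. Among all 592 miRNAs, 51.2% were higher in Trim71-/- and the median log2 fold change was 0.03. Only miR-200c-3p passed the thresholds of the study, an unadjusted p under 0.05 and a fold change over 1.5, and 0.845% of all miRNAs passed them in this direction. No member was past them in the other direction, in which 4.56% of all miRNAs were. With Benjamini-Hochberg adjustment over 592 miRNAs limma called none at an adjusted p under 0.05, and 32 had an unadjusted p under 0.05.

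**Figure D1:**
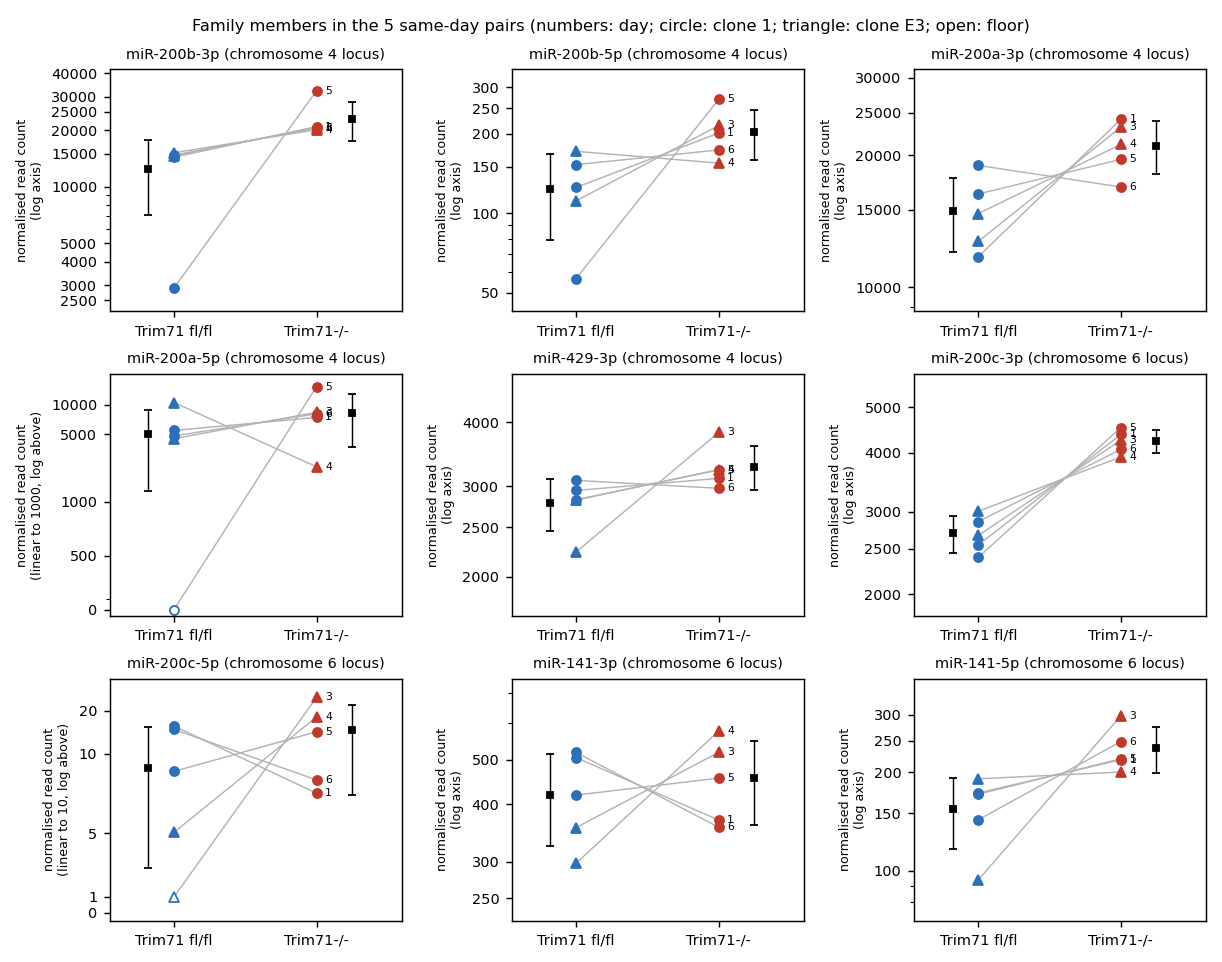
Normalised read count of each member by library in the 5 same-day pairs, with grey lines joining the libraries of a day and black squares with bars giving the mean and SD of each group (n = 5). The groups are apart for miR-200b-3p, miR-200c-3p and miR-141-5p, and the day 5 pair stands far from the others for miR-200b-3p and miR-200a-5p.

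miR-200c-3p, the main product of the chromosome 6 locus, gave the tightest difference. Its normalised read counts on days 1, 3, 4, 5 and 6 were 4380, 4258, 3923, 4531 and 4072 in Trim71-/- and 2549, 2671, 3006, 2398 and 2857 in Trim71 fl/fl. Every Trim71-/- library was above every Trim71 fl/fl library, and the same-day ratios ran from 1.3 to 1.89. By limma it rose by a log2 fold change of 0.65 (SE 0.23, 95% interval 0.08 to 1.22, p = 0.0306, adjusted p = 0.607), and the exact permutation test of the genotypes within days gave p = 0.0625 (two-sided), the smallest that 5 pairs allow. The call was lost when day 1, 3, 5 or 6 was left out, with log2 fold changes of 0.59 to 0.69, and when each library was divided by its total, with a log2 fold change of 0.38.

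miR-200b-3p, which has the same seed as miR-200c-3p but is encoded on chromosome 4, was also higher on all 5 days. It measured 20892, 20641, 20099, 32362 and 20536 normalised read counts on days 1, 3, 4, 5 and 6 in Trim71-/- and 14371, 14622, 15164, 2901 and 14728 in Trim71 fl/fl. On days 1, 3, 4 and 6 the same-day ratios lay between 1.33 and 1.45, and on day 5 the ratio was 11.2. The log2 fold change of 1.08 (SE 0.53, 95% interval -0.22 to 2.39) did not pass the limma test (p = 0.0894, adjusted p = 0.607), and the exact permutation p was 0.0625. Without day 5 the log2 fold change was 0.48.

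miR-141-5p, the strand of the miR-141 hairpin that carries a seed of its own, was the third member whose groups did not overlap. Its normalised read counts on days 1, 3, 4, 5 and 6 were 218, 298, 200.3, 219.9 and 248 in Trim71-/- and 173, 93.6, 191, 171 and 143.1 in Trim71 fl/fl. The day 3 pair was the widest, with a ratio of 3.18, and the day 4 pair differed by a ratio of 1.05. The log2 fold change was 0.64 (SE 0.32, 95% interval -0.13 to 1.41), with a limma p of 0.0876 (adjusted p = 0.607) and an exact permutation p of 0.0625. Without day 3 the log2 fold change was 0.39. Among all 592 miRNAs 5.24% were higher in Trim71-/- on all 5 days, and because the same-day sums are equal these are the same miRNAs whose groups do not overlap.

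miR-200b-5p, the minor strand of its hairpin, was higher on 4 of 5 days. In Trim71-/- it measured 201.4, 215.2, 154.98, 270.1 and 173.8 normalised read counts on days 1, 3, 4, 5 and 6, and in Trim71 fl/fl 125, 111, 172, 56.6 and 153. Day 4 went the other way and day 5 was the widest, with a ratio of 4.77. On the log2 scale the fitted difference was 0.78 (SE 0.40, limma p = 0.0985, adjusted p = 0.607, exact permutation p = 0.125), and without day 5 it was 0.41.

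miR-200a-3p, which shares its seed with miR-141-3p, was higher on 4 of 5 days as well. It measured 24123, 23151, 21145, 19555 and 16919 normalised read counts on days 1, 3, 4, 5 and 6 in Trim71-/- and 11738, 12710, 14716, 16306 and 18942 in Trim71 fl/fl. The exception was day 6, and the groups overlapped through that pair. Its log2 fold change was 0.51 (SE 0.28, 95% interval -0.18 to 1.19, limma p = 0.121, adjusted p = 0.62, exact permutation p = 0.125). In contrast to miR-200b-3p, its day 5 ratio of 1.2 lay within the ratios of its other days.

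miR-200a-5p, the other strand of that hairpin, had the highest fold change of the family on the fitted log2 scale, and the widest error. In Trim71-/- it measured 7437, 8404, 2301, 15453 and 8098 normalised read counts on days 1, 3, 4, 5 and 6, and in Trim71 fl/fl 5457, 4491, 10594, 1 and 4796. The value of 1 on day 5 is the floor, and the equal same-day sums place it at -2559 before the floor was applied, which is not a possible read count. Day 4 went the other way, with a ratio of 0.217. The log2 fold change of 2.56 (SE 2.16, 95% interval -2.72 to 7.85, limma p = 0.28, adjusted p = 0.664, exact permutation p = 0.562) therefore rests on the day 5 pair, and without that day it was -0.02. From untransformed values it was 0.72, or 0.87 before the floor, below the 0.89 of miR-200b-3p in either setting.

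miR-429-3p, the third hairpin of the chromosome 4 locus, differed least among the abundant members. Its normalised read counts on days 1, 3, 4, 5 and 6 were 3111, 3821, 3230, 3236 and 2975 in Trim71-/- and 2947, 2236, 2827, 2821 and 3082 in Trim71 fl/fl. Only day 3 had a ratio above 1.15, at 1.71, and day 6 went the other way. The fitted difference was 0.24 on the log2 scale (SE 0.25, 95% interval -0.37 to 0.84, limma p = 0.374, adjusted p = 0.699, exact permutation p = 0.125), and without day 3 it was 0.10.

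miR-141-3p, the strand that shares its seed with miR-200a-3p, showed no direction over the days. It measured 370, 519, 577, 456 and 357 normalised read counts on days 1, 3, 4, 5 and 6 in Trim71-/- and 506, 356, 298, 419 and 519 in Trim71 fl/fl. Trim71-/- was higher on both days of clone E3 and on day 5, and lower on days 1 and 6. The log2 fold change was 0.13 (SE 0.32, 95% interval -0.65 to 0.90, limma p = 0.709, adjusted p = 0.87, exact permutation p = 0.625), and without day 4 it was -0.08.

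miR-200c-5p, the rare strand of the miR-200c hairpin, stayed below 25 normalised read counts in every library. It measured 7.52, 24.9, 18.1, 14.3 and 8.36 on days 1, 3, 4, 5 and 6 in Trim71-/- and 15.7, 1, 5.06, 8.90 and 14.8 in Trim71 fl/fl, where the 1 of day 3 is the floor. Its log2 fold change was 0.85 (SE 0.73, limma p = 0.288, adjusted p = 0.666, exact permutation p = 0.5), and without day 3 it was 0.14. Since the filter let it pass only through Trim71-/-, its direction is no measurement on its own.

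**Figure D2:**
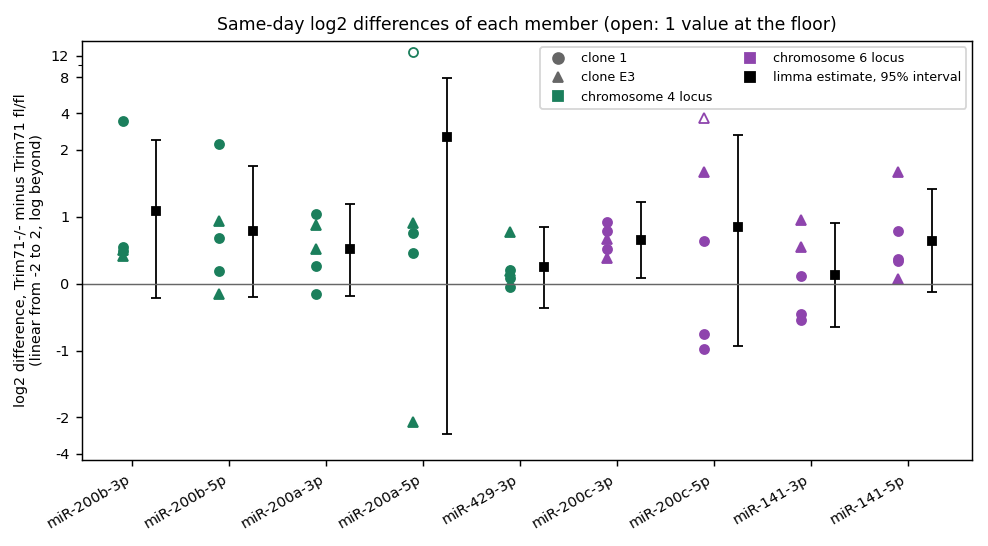
Same-day log2 differences, Trim71-/- minus Trim71 fl/fl, of each member (points, 1 per day; the axis is linear from -2 to 2 and logarithmic beyond) with the limma log2 fold change and its 95% interval (black). The interval of miR-200c-3p lies above 0, and the other 8 include 0.

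By locus, the 5 members of chromosome 4 had a median log2 fold change of 0.78 and the 4 members of chromosome 6 one of 0.65. One of those 4, miR-200c-5p, is in the table only through Trim71-/- and holds a floored value on day 3, and without it the median of the other 3 was 0.64. Day 5 sets the order of the loci, since without it the medians were 0.41 and 0.65, or 0.59 without miR-200c-5p. The median same-day difference of the chromosome 4 members was above 0 on 5 of 5 days, from 0.18 on day 6 to 2.23 on day 5. That of the 3 chromosome 6 members other than miR-200c-5p was above 0 on 5 of 5 days as well, from 0.34 on day 1 to 0.67 on day 3. With miR-200c-5p counted in, the chromosome 6 median was above 0 on 3 of 5 days, from -0.06 on day 1 to 1.17 on day 3, where its value is the floored one. On day 5 the chromosome 4 members split, with log2 differences of 3.48 for miR-200b-3p and 2.23 for miR-200b-5p and a floored value for miR-200a-5p, against 0.26 for miR-200a-3p and 0.20 for miR-429-3p. Among all 592 miRNAs the day medians lay between -0.02 and 0.02, and the difference between the loci was not tested.

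Summed over its members, the family made up 1.4, 1.45, 1.38, 1.37 and 1.23% of the library in Trim71-/- on days 1, 3, 4, 5 and 6, and 1.01, 0.965, 1.08, 0.915 and 1.20% in Trim71 fl/fl. The shares of the genotypes did not overlap, but on day 6 they were nearly equal. By seed, the class of miR-200b-3p, miR-200c-3p and miR-429-3p held 0.684% ± 0.0407 (SD, n = 5) of the library in Trim71-/- and 0.473% ± 0.102 in Trim71 fl/fl. The class of miR-200a-3p and miR-141-3p held 0.492% ± 0.105 and 0.428% ± 0.129, which overlapped.

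The summed value of the library was higher in Trim71-/- on 4 of 5 days and lower on day 4, and the gap was widest on day 5 (5551715 against 2742673). When each library was divided by its total, the median over all 592 miRNAs was -0.24 (log2) in place of 0.03, 34.5% of them were higher in Trim71-/-, and 7 of the 9 members were. miR-141-3p and miR-429-3p then changed sign, with log2 fold changes of -0.14 and -0.03. Such a division by construction shifts the log2 fold changes of all miRNAs nearly alike. The total is itself carried by few miRNAs, since miR-290 to miR-295 took between 55.3 and 59.4% of every library.

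**Figure D3:**
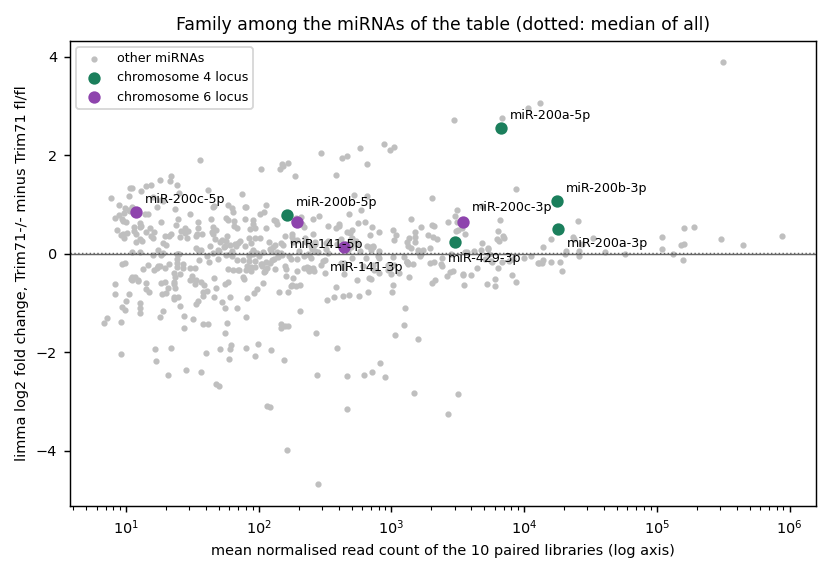
Limma log2 fold change, Trim71-/- minus Trim71 fl/fl, against the mean normalised read count of the 10 paired libraries (log axis) for all 592 miRNAs, with the family coloured by locus. All 9 members lie above 0, and 5 of them have mean values of 3029 or more.

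By arm, the 5 members from 3p arms had a median log2 fold change of 0.51 and the 4 from 5p arms one of 0.81. After division by the library total these were 0.24 and 0.56. The median same-day difference was above 0 on 4 of 5 days for either arm, with -0.05 on day 6 for the 3p arms and -0.04 on day 4 for the 5p arms, of which 2 members hold a floored value. Without miR-200c-5p the 5p median was 0.78, and -0.15 on day 4. Leaving out day 5 gave medians of 0.48 for 3p and 0.56 for 5p, or 0.41 for 5p without miR-200c-5p. In clone E3 alone they were 0.53 and 0.63, or 0.40 for 5p without miR-200c-5p. Without that member the order of the arms thus turned in both settings, and the difference between the arm medians was not tested. In Trim71 fl/fl the 3p arms supplied 87.3% ± 8.06 (SD, n = 5) of the summed value of the family and in Trim71-/- 86.1% ± 5.74. The control mean and SD include a share of 99.1% on day 5, where the value of miR-200a-5p is the floor. The preference for the 3p strand differed widely between hairpins. In Trim71 fl/fl the median ratio of 3p to 5p values was 269 for miR-200c and 96.3 for miR-200b, and it was 2.83 for miR-200a and 2.93 for miR-141. By the ratio of group means miR-200c was 3rd and miR-200b 8th towards the 3p arm among the 179 hairpins of the table with both arms, of which 48% had more of the 3p arm. The rank of miR-200c is uncertain, since its 5p mean of 9.09 includes a floored value and lies under the filter of the authors. The lower ratios were thus those of miR-200a and miR-141, which share a 3p seed and lie in different loci.

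The arm ratio was then compared between the genotypes within libraries. Apart from the added 1, this removes a factor that scales all deposited values of a library alike. A factor from before the batch correction need not cancel, since that correction made the same-day sums equal. No hairpin of the family passed the thresholds, and 1.68% of the 179 hairpins did. For miR-141 the ratio of 3p to 5p was 1.69, 1.74, 2.88, 2.08 and 1.44 in Trim71-/- on days 1, 3, 4, 5 and 6 and 2.93, 3.81, 1.56, 2.45 and 3.63 in Trim71 fl/fl. It was lower in Trim71-/- on 4 of 5 days, with day 4 as the exception. The log2 difference of the ratio was -0.52 (SE 0.45, 95% interval -1.60 to 0.56, limma p = 0.29, adjusted p = 0.835, exact permutation p = 0.25), and it was -0.87 without day 4 and -0.31 without day 6.

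For miR-200b the ratio ranged from 95.9 to 130.4 in Trim71-/- and from 51.2 to 131 in Trim71 fl/fl, and the log2 difference was 0.30 (SE 0.40, limma p = 0.474, adjusted p = 0.835, exact permutation p = 0.438), and it was 0.07 without day 5 and 0.49 without day 3. On day 5 both strands of miR-200b had the same direction, with ratios of 120 and 51.2 between the arms in Trim71-/- and Trim71 fl/fl. The ratios of miR-200a (log2 difference -2.06, SE 2.17, limma adjusted p = 0.835) and miR-200c (-0.20, SE 0.76, limma adjusted p = 0.982) each include a floored 5p value, and that of miR-200a was 0.59 without day 5 and that of miR-200c 0.51 without day 3.

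**Figure D4:**
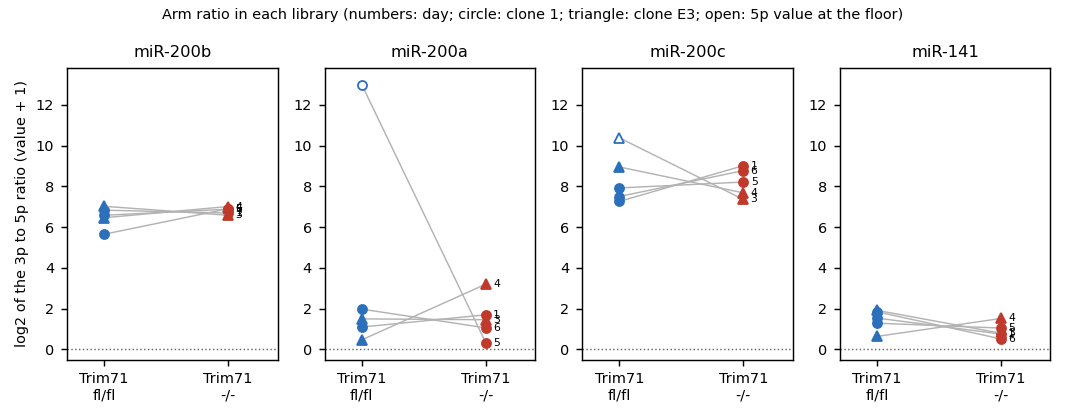
Log2 ratio of the 3p to the 5p value in each library of the 4 hairpins with both arms (value + 1; days numbered, clones by symbol). miR-200b and miR-200c lie far above 0 in all libraries, miR-200a and miR-141 lie mostly between 0 and 4, and the open symbols mark libraries whose 5p value is at the floor.

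The labels name 2 clones, and the differences were compared between them. In clone 1 (days 1, 5 and 6) the mean log2 difference of miR-200c-3p was 0.74 and in clone E3 (days 3 and 4) it was 0.53. The difference between the clones was -0.21 (95% interval -1.53 to 1.11, limma adjusted p = 0.867). For miR-141-3p the values were -0.29 and 0.75, a difference of 1.04 (95% interval -0.36 to 2.43, limma adjusted p = 0.627). Of the 9 members, miR-200c-5p had an unadjusted p under 0.05, as 5.57% of all miRNAs did, with -0.37 in clone 1 and 2.68 in clone E3 (difference 3.04, 95% interval 0.75 to 5.33, limma adjusted p = 0.627). Clone E3 has 2 pairs, and 1 of them holds the floored value of miR-200c-5p.

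The miRNAs whose 5 same-day differences lay nearest to the day medians of the family were sought among 285 others with a mean of at least 100 and no value at the floor. The nearest was miR-96-5p, at a mean absolute log2 difference of 0.218 over 5 days, followed by miR-5100 (0.282), miR-135b-5p (0.286), miR-27a-3p (0.29) and miR-28a-5p (0.332). miR-96-5p is made from a cluster that also encodes miR-182 and miR-183, and which is known from epithelial and sensory cells. It differed by 0.30, 0.65, 0.03, 0.34 and 0.26 on days 1, 3, 4, 5 and 6, and its log2 fold change of 0.31 did not pass the test (limma adjusted p = 0.645). Of the members themselves, miR-200c-3p lay at 0.229 and miR-200b-3p at 0.726 from the same medians, with 1 and 128 of the 285 others nearer. For miR-429-3p, miR-200a-3p, miR-141-5p, miR-200b-5p and miR-141-3p, 1, 3, 22, 39 and 75 others lay nearer to the family medians. These medians count in miR-200c-5p, which is in the table only through Trim71-/-. Without it they were 0.49, 0.82, 0.29, 0.64 and 0.33 on days 1, 3, 4, 5 and 6. The search was not repeated with those, so that the order given here holds only with miR-200c-5p counted in.

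Other miRNAs known from epithelia (miR-31, miR-96, miR-182, miR-183, miR-192, miR-194, miR-203, miR-205 and miR-375) gave 15 rows, of which 12 were higher in Trim71-/- and none was past the thresholds in either direction, and their median was 0.20 on the log2 scale. Among all 592 miRNAs 51.2% were higher in Trim71-/-, and 0.845% and 4.56% were past the thresholds upwards and downwards. At such shares, none past them in a list of this length says little about its miRNAs. The member with the smallest p was miR-96-3p, with 128.5 ± 21.8 normalised read counts in Trim71-/- and 75.02 ± 21.8 in Trim71 fl/fl (SD, n = 5), higher on 5 of 5 days (log2 fold change 0.81, limma p = 0.0541, adjusted p = 0.607, exact permutation p = 0.0625). Of 18 rows of miRNAs known from mesenchymal cells, 12 were higher in Trim71-/- and none was past the thresholds, beside the same shares over all miRNAs, with a median of 0.19. Their summed share of the library on days 1, 3, 4, 5 and 6 was 9.76, 9.48, 7.46, 15.5 and 8.89% in Trim71-/- and 7.23, 7.62, 9.57, 1.42 and 8.18% in Trim71 fl/fl. It was thus higher in Trim71-/- on every day but day 4, and its part in the differences of the family was not tested. The share is carried by miR-21a-5p, named after its values were seen, which on day 5 measured 796335 normalised read counts in Trim71-/- and was at the floor in Trim71 fl/fl. Its same-day sums on the other days were equal and place this control value below 0 before the floor. That is not a possible read count, and it enters both day 5 shares. The member of the list with the smallest p, miR-155-3p, measured 6.398 ± 1.19 in Trim71-/- and 10.2 ± 1.19 in Trim71 fl/fl (log2 fold change -0.61, limma p = 0.0574, adjusted p = 0.607, exact permutation p = 0.0625). Its Trim71-/- mean is under the filter of the authors, so that it is in the table only through Trim71 fl/fl.

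Markers of the cell type and of possible other cells were read beside these values, since in bulk samples more cells of a type and more RNA per cell cannot be told apart. The counts below stand beside 51.2% of all 592 miRNAs higher in Trim71-/-, and 0.845% and 4.56% past the thresholds upwards and downwards. Of single miRNAs, 5.24% were higher in Trim71-/- without overlap of the groups. miR-290 to miR-295, which mark mES cells, took 55.3 to 59.4% of the libraries in Trim71-/- and 56.4 to 59.1% in Trim71 fl/fl. miR-302a to miR-302d and miR-367, known from pluripotent cells, were lower in Trim71-/- in 9 of 9 rows (median log2 fold change -0.64), and none was past the thresholds. They took 0.191 to 0.344% of the libraries in Trim71-/- and 0.36 to 0.651% in Trim71 fl/fl, so that the shares did not overlap. Their summed values did overlap, at 8321 to 14421 normalised read counts in Trim71-/- and 14066 to 20166 in Trim71 fl/fl. The 8 fibroblast miRNAs (miR-143, miR-145a, miR-199a and miR-199b) summed to between 0.364 and 0.713% of the library in Trim71-/- and between 0.476 and 0.815% in Trim71 fl/fl. Before division by the total, 6 of these 8 were higher in Trim71-/- (median log2 fold change 0.15), with none past the thresholds. The 4 neural miRNAs (miR-9 and miR-124) took 0.0899 to 0.1% and 0.0591 to 0.0859%. Neither these shares nor the summed values, 3742 to 5493 and 1622 to 3373 normalised read counts, overlapped. Of these miRNAs 4 of 4 were higher in Trim71-/- (median log2 fold change 0.64) with none past the thresholds. The 3 blood miRNAs (miR-142 and miR-451a) took 0.00955 to 0.0461% and 0.0401 to 0.107%, with 1 of the 3, miR-142-3p, past the thresholds and lower in Trim71-/- (log2 fold change -1.11, limma adjusted p = 0.607), as were 4.56% of all miRNAs. The 2 muscle miRNAs stayed at or under 0.00454% and miR-122-5p, the liver marker, at or under 0.0007%, in every library. Their part in the differences of the family was not tested.

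**Figure D5:**
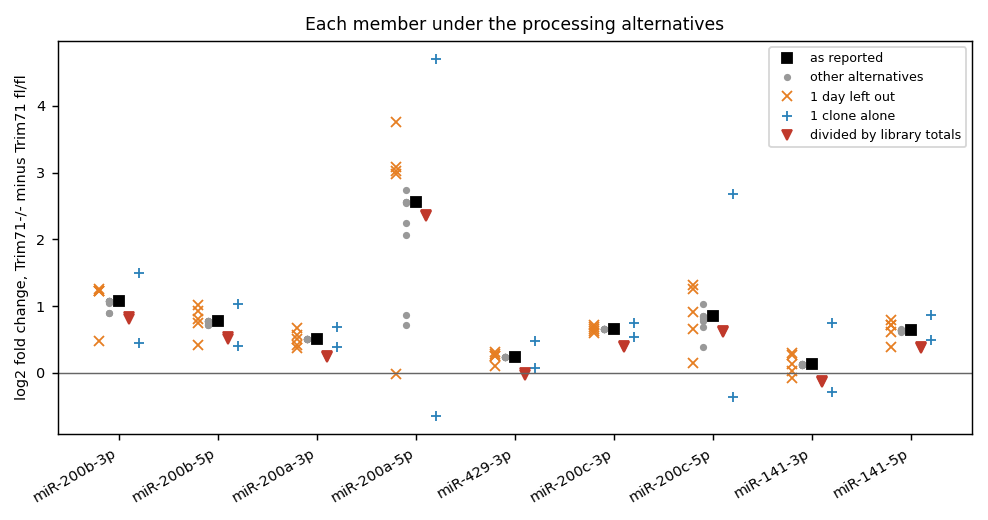
Log2 fold change of each member, Trim71-/- minus Trim71 fl/fl, as reported (black) and under the processing alternatives. miR-200b-3p, miR-200b-5p, miR-200a-3p, miR-200c-3p and miR-141-5p stay above 0 in all of them, and miR-200a-5p, miR-429-3p, miR-200c-5p and miR-141-3p fall below 0 in at least 1.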

How the data were processed

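Small RNA was sequenced from 5 Trim71-/- and 6 Trim71 fl/fl libraries. According to the study's Methods, 50 bp reads were processed with CASAVA 1.8 and FLICKR, aligned with Bowtie2 2.2.1 (mm10, miRBase v20) and counted in Partek 6.6. The labels instead describe a kit for messenger RNA. The deposited signal has the scale of read counts that the authors normalised with DESeq2, corrected for batch and raised to at least 1. Raw counts were not used here, the depth is unknown and no counting interval could be given.

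The labels join 1 library of each genotype by a day number, which gives the pairs. Same-day deviations from the group means correlated between -0.65 and -0.41 (log2, across miRNAs), as equal same-day sums impose. Limma 3.58.1 in R 4.3.3 was fitted to log2(value + 1) of all 592 miRNAs in 10 libraries with genotype and day (two-sided, Benjamini-Hochberg), also to log2 ratios of 179 hairpins and, by clone, to the 5 same-day differences. Genotypes were permuted exactly within days (32 sign patterns). In simulated data for this comparison over 592 miRNAs, 90 of 100 miRNAs given a true difference of 3 (log2) passed the thresholds, as did 26 of 492 unchanged ones, and 94.8% of intervals held the true value. The simulated differences were normal and had no floor. Their size lies above every fitted change of the family (median 0.65, highest 2.56). The rate of 90 in 100 therefore does not tell how often changes of the family's size would pass. Nothing in the labels says that the libraries of a group came from separate derivations, so that p-values measure the spread between days.

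Named were all members, the 5 miRNAs nearest to the day medians, and of 2 lists those past the thresholds or else with the smallest p. miR-142-3p was named after its values were seen. Members and lists were chosen with earlier results of these data known. Alternatives were no block, all 11 libraries, each day left out, each clone alone, other scalings, pseudocounts of 0.1 and 10, untransformed values, a limma trend and a mean of at least 100. Values before the floor and a fit without floored miRNAs were added after seeing the data. Figures were drawn with matplotlib 3.10.9.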

Additional observations from a re-analysis of the deposited data

Results flagged for a closer look

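miR-200b-3p on day 5 stood apart from the other 4 days in both genotypes, at 32361.8 normalised read counts in Trim71-/- and 2901.19 in Trim71 fl/fl, with a gap to the nearest library of 0.935 of the group's range. Because the same-day sums are equal, these are 1 event and not 2. The critical value for 5 samples is 0.71, which chance alone passes in about 1 of 20 groups. Of the 18 groups examined most are mirrored pairs and not separate chances. The cause was not tested.

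The log2 difference of miR-200c-5p was 3.04 higher in clone E3 than in clone 1 (limma adjusted p = 0.627). Both days of clone E3 and 1 of 3 days of clone 1 were higher in Trim71-/-. This miRNA is in the table only through Trim71-/-, where its highest values are the 24.9 and 18.1 of clone E3, and its control value on day 3 is at the floor, so that the clone difference is not independent of the filter on group means.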

How the results depend on the processing

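Of the 9 members, 5 (miR-200b-3p, miR-200b-5p, miR-200a-3p, miR-200c-3p and miR-141-5p) kept their direction under all alternatives run. The number of members past the thresholds, 1 as reported, was 0 to 1 with a day left out, 0 in clone 1 alone, 0 after division by the library total and 0 after division by the total without miR-290 to miR-295. In the unpaired fit without the day block it was 4, also with all 11 libraries, namely miR-200c-3p, miR-200b-3p, miR-200b-5p and miR-141-5p, but 42 and 45 of all 592 miRNAs then passed in this direction, against 5 with the block. That fit treats the mirrored values of a pair as independent. In clone E3 alone it was 1 and a different member, miR-200c-5p (log2 fold change 2.68). The family median of 0.65 was 0.38 after division by the total, and the chromosome 6 median was 0.10 in clone 1 alone, or 0.49 without miR-200c-5p, the member that is in the table only through Trim71-/- (a setting chosen after seeing the data). Single days moved these medians as well, the family to 0.42 without day 3, chromosome 4 to 0.41 without day 5 and chromosome 6 to 0.26 without day 3, and in clone E3 alone the loci stood at 0.45 and 0.80. Without miR-200c-5p as well, the family stood at 0.53 and chromosome 6 at 0.39 without day 3, and chromosome 6 at 0.75 in clone E3 alone. With a day left out, miR-141-3p ranged from -0.08 to 0.29 and miR-200a-5p from -0.02 to 3.76, and the arm ratios of miR-200a from -3.25 to 0.59 and of miR-200c from -0.68 to 0.51. Signs also turned for miR-141-3p (-0.29 in clone 1 alone, -0.14 and -0.13 after division by the total and by the total without miR-290 to miR-295), miR-429-3p (-0.03 and -0.01 in the same divisions), miR-200c-5p (-0.37 in clone 1 alone), miR-200a-5p (-0.65 in clone E3 alone), the arm ratio of miR-200c (1.10 in clone 1 alone, 0.26 with a pseudocount of 10, and past the thresholds at -2.15 in clone E3 alone), the arm ratio of miR-200a (1.34 in clone E3 alone) and the clone difference of miR-200c-3p (0.31 after division by the total). The cause was not tested. The arm ratio of miR-200c could not be fitted at a mean of at least 100.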
